A study of Homo sapiens with 21 samples.

Results

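The mitochondrially encoded genes, those with a symbol beginning with MT- in the deposited tables, were followed in C3A cells, an established human hepatoma line derived from HepG2 and used as a model of hepatocytes. There were 35 such genes among the 28808 listed: 13 that encode proteins, 2 that encode ribosomal RNAs and 20 that encode transfer RNAs. MT-TK and MT-TS2 are not analysed here. All 35 were in each of the 6 tables and passed the filter for testing (3 or more libraries with an FPKM, the reads scaled to gene length and library size, of 1 or above), as did 13405 genes in all. The 21 RNA-seq libraries, all from wild-type cells, came from 6 unexposed samples and from 3 samples of each of 5 exposures lasting 48 h. Glyphosate, a herbicide that blocks aromatic amino acid synthesis in plants, was given at 5.6 µM, its main metabolite in soil, AMPA, at 34 µM, and 2,4-D (2,4-dichlorophenoxyacetic acid), a synthetic auxin herbicide, at 2.5 µM. One mixture was Glyphosate+2,4-D, the other was AMPA+2,4-D, and the labels put all concentrations far below those that halve viability. Nothing in the labels tells if the replicates of a group were grown separately, so p-values measure only the spread between these samples, which may be technical.

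Human mitochondrial DNA (mtDNA) is a compact circle, present in many copies per cell, that is read from both strands into long precursor RNAs. In these precursors tRNAs lie between most of the rRNAs and mRNAs, and their excision releases the other RNAs, many of which then receive short poly(A) tails. The encoded proteins are core subunits of respiratory complexes I, III and IV and of ATP synthase, which the cell completes with subunits encoded in the nucleus. The 12S and 16S rRNAs, from MT-RNR1 and MT-RNR2, form the 2 subunits of the mitochondrial ribosome that translates the mRNAs. Liver cells are rich in mitochondria, which they use for fatty acid oxidation, the urea cycle and steps of gluconeogenesis.

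The junctions below show how closely tRNAs that differed from unexposed cells lie to the genes next to them, whether or not those genes differed. They were read from GENCODE release 29 transcripts (GRCh38), whose lengths equalled those in the files for 35 of 35 members, and are given 5′ to 3′ on the strand of the gene. The tRNA is in capitals, with 20 bases of the neighbouring gene in lower case where a gene adjoins it. Each member is a single exon, and positions are those of the files.
12S rRNA end, MT-TV and 16S rRNA start, chrM:1582-1690, plus strand: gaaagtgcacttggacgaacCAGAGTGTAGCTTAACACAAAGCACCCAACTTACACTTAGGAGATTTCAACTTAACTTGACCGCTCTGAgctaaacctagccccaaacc
16S rRNA end and MT-TL1, chrM:3210-3304, plus strand: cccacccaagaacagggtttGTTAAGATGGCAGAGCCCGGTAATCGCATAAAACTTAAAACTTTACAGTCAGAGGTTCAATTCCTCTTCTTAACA
MT-TD and MT-CO2 start, chrM:7518-7605, plus strand: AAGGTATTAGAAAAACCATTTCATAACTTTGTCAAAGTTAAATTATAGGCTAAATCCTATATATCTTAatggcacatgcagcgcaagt
MT-TE and MT-ND6 start, chrM:14654-14742, minus strand: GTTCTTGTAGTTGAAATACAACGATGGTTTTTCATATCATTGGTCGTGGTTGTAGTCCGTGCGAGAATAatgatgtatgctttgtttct
MT-CYB end and MT-TT, chrM:15868-15953, plus strand: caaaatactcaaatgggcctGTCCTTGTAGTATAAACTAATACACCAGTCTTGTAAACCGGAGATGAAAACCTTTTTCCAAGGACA
MT-TP, chrM:15956-16023, minus strand: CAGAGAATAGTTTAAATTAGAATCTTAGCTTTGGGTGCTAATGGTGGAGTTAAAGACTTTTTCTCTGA
In the first 5 of these the annotated end of one gene is followed by the annotated start of the next with no base between them, and MT-TP is shown alone. A read that spans such a junction overlaps more than one gene, and how such reads were assigned is not given in the sources used here.

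Libraries held 15.2 to 24.4 M assigned reads, with 17.4 to 19.8 M in unexposed cells. Unexposed replicates 1 to 3 and 4 to 6 stood apart from each other, although the labels name no batch, and results are therefore also given without either set. AMPA+2,4-D replicates 1 and 3 were below all other libraries in 5 of the 9 members read from the minus strand of mtDNA. These were MT-ND6, MT-TE, MT-TS1, MT-TY and MT-TC, and not the other 4. For MT-TC this rests on 6 and 7 reads, against 7 in 2,4-D replicate 3. Genes off that strand were not counted in this way. Results that rest on AMPA+2,4-D replicates 1 and 3 are given without them. All 10 hepatocyte markers were present, although unexposed replicates 1 to 3 were lower in ALB (2249 to 2598 FPKM, against 3322 to 4390 in all other libraries) and in AFP (1205 to 1297, against 2157 to 2903). These markers did not move one way: ALB, AFP, TF, APOA1, SERPINA1 and TTR were called higher in all 5 exposures and APOH in 3, FGB in none, and APOB (log2 difference -0.26 to -0.56) and the transcription factor gene HNF4A (-0.69 to -0.84, adjusted p = 1.7e-11 to 3.07e-10) lower in all 5. Of 10 markers of other cell types, 8 were in the tables and 3 (EPCAM, KRT19 and ACTA2) passed the filter. Their summed FPKM of 120 to 135 in unexposed and 124 to 137 in exposed libraries overlapped, but ACTA2 was called lower in all 5 exposures (-0.36 to -0.49), EPCAM higher in 3 (0.08 to 0.12 over all 5) and KRT19 in none, and COL1A1, LRAT, CD68, PECAM1 and VWF were at or near 0.

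Mitochondrial RNA made up 21.6 to 24.96% of the summed FPKM in unexposed libraries and 19.9 to 24.2% in exposed ones. The mean share was 23.4% ± 1.05 (SD, n = 6) in unexposed cells, 20.2% ± 0.207 after glyphosate, 22.3% ± 1.57 after AMPA, 21.9% ± 0.522 after 2,4-D, 21.7% ± 1.12 after Glyphosate+2,4-D and 23.3% ± 1.28 after AMPA+2,4-D (SD, n = 3 each). No exposure passed the exact two-sided permutation test after adjustment over the 5 exposures (adjusted p = 0.119 for glyphosate, 2,4-D and Glyphosate+2,4-D, 0.327 for AMPA and 0.905 for AMPA+2,4-D). The smallest p this test can give is 0.0238, which glyphosate reached before adjustment, all 3 of its libraries lying below every unexposed library. These are shares of each library in bulk RNA, so they do not give the amount of mitochondrial RNA per cell. FPKM divides by gene length, so short genes weigh more in this share than in the share of reads, where the members held 6.77 to 8.24% of a library.

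Within that total the 3 classes of mitochondrial RNA differed from unexposed cells in different directions. The rRNA share rose from 4.70% ± 0.389 in unexposed cells to means of 6.12 to 6.53% across the exposures, and each of the 15 exposed libraries (5.66 to 6.89%) lay above each unexposed library (4.23 to 5.16%). The tRNA share fell from 0.773% ± 0.0395 to means of 0.404 to 0.449%, again with no overlap (0.400 to 0.470% against 0.725 to 0.828%). Both differences passed in all 5 exposures (exact permutation test, adjusted p = 0.0238, the smallest possible). The tRNA share rests largely on few genes: MT-TL1 had a mean of 762 FPKM over all libraries and the next tRNA, MT-TS1, 123. MT-TS1 was called lower in 1 exposure, and MT-TQ and MT-TC in 0. Of reads, tRNAs held 0.0156 to 0.0180% in unexposed and 0.00854 to 0.0102% in exposed libraries. The mRNA share, 17.9% ± 1.16 in unexposed cells, had means of 13.3% after glyphosate, 15.5% after AMPA, 15.3% after 2,4-D, 14.7% after Glyphosate+2,4-D and 16.5% after AMPA+2,4-D, and did not pass (adjusted p = 0.0595 in the first 4 and 0.119 in the last, exact permutation test). Taken over all exposures its ranges overlapped, at 13.1 to 17.4% in exposed and 16.1 to 19.6% in unexposed libraries. After glyphosate and after 2,4-D, however, all 3 libraries lay below every unexposed library. Both reached the smallest p of the permutation test, 0.0238, before adjustment. Below every unexposed library lay 2 libraries after AMPA, 2 after Glyphosate+2,4-D and 1 after AMPA+2,4-D.

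**Figure D1:**
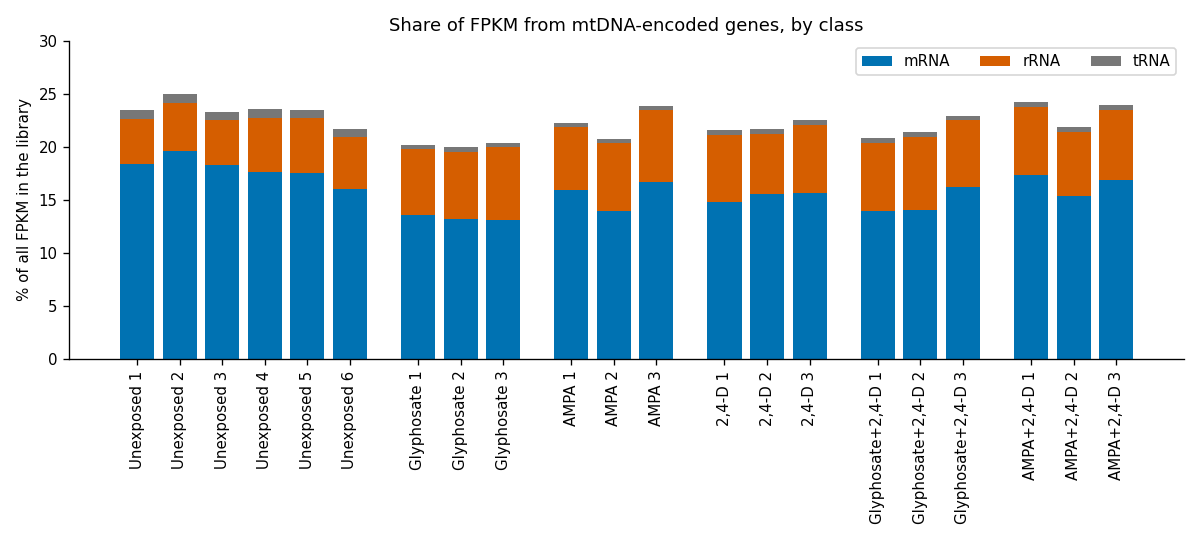
Stacked bars give, for each of the 21 libraries, the percent of summed FPKM (y axis) held by mitochondrial mRNAs, rRNAs and tRNAs. The rRNA part is 4.23 to 5.16% in the 6 unexposed libraries and 5.66 to 6.89% in the 15 exposed ones, while the totals overlap.

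Gene by gene, limma called 2 members higher and 17 lower after glyphosate, 2 and 11 after AMPA, 2 and 14 after 2,4-D, 2 and 13 after Glyphosate+2,4-D, and 4 and 15 after AMPA+2,4-D. A member was called when its Benjamini-Hochberg adjusted p, over all genes tested in that comparison, was under 0.05. Among all 13405 genes, 27.7% were called higher and 25.1% lower after glyphosate, 28% and 24.8% after AMPA, 25% and 22.6% after 2,4-D, 25.4% and 22.7% after Glyphosate+2,4-D, and 26% and 24.4% after AMPA+2,4-D. Their median log2 differences were -0.49, -0.29, -0.36, -0.35 and -0.23 in the same order, where the median of all genes tested was 0.013, 0.014, 0.0016, 0.0025 and 0.00050. The direction went with the class: both rRNAs were called higher in all 5 exposures, and no tRNA was called higher in any. The libraries of an exposure did not overlap those of unexposed cells for 20 members after glyphosate (background 45.5% of all genes), 12 after AMPA (44.4%), 15 after 2,4-D (39.7%), 12 after Glyphosate+2,4-D (40.4%) and 12 after AMPA+2,4-D (39.3%). Of all calls 51.7 to 53.1% were higher. With values scaled to equal sums (TPM) or to the sum of nuclear genes, the median of all genes moved to between -0.078 and -0.139, and 29.8 to 37.6% or 27.1 to 33.3% of calls were higher. Dividing the library total implied by the authors' FPKM by the recovered reads gave 1.03 to 1.082 for unexposed and 0.942 to 1.01 for exposed libraries, which by itself lowers unexposed FPKM relative to exposed FPKM for every gene; the TPM and nuclear scales do not use that total. On the TPM scale 2 members were higher in every exposure and 20, 15, 17, 17 and 16 lower. All 5 comparisons share the same 6 unexposed libraries and are not independent of each other. The share of all genes called the same way in all 5 exposures was not counted. Calls in all 5 are therefore not read as a trait of these members.

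**Figure D2:**
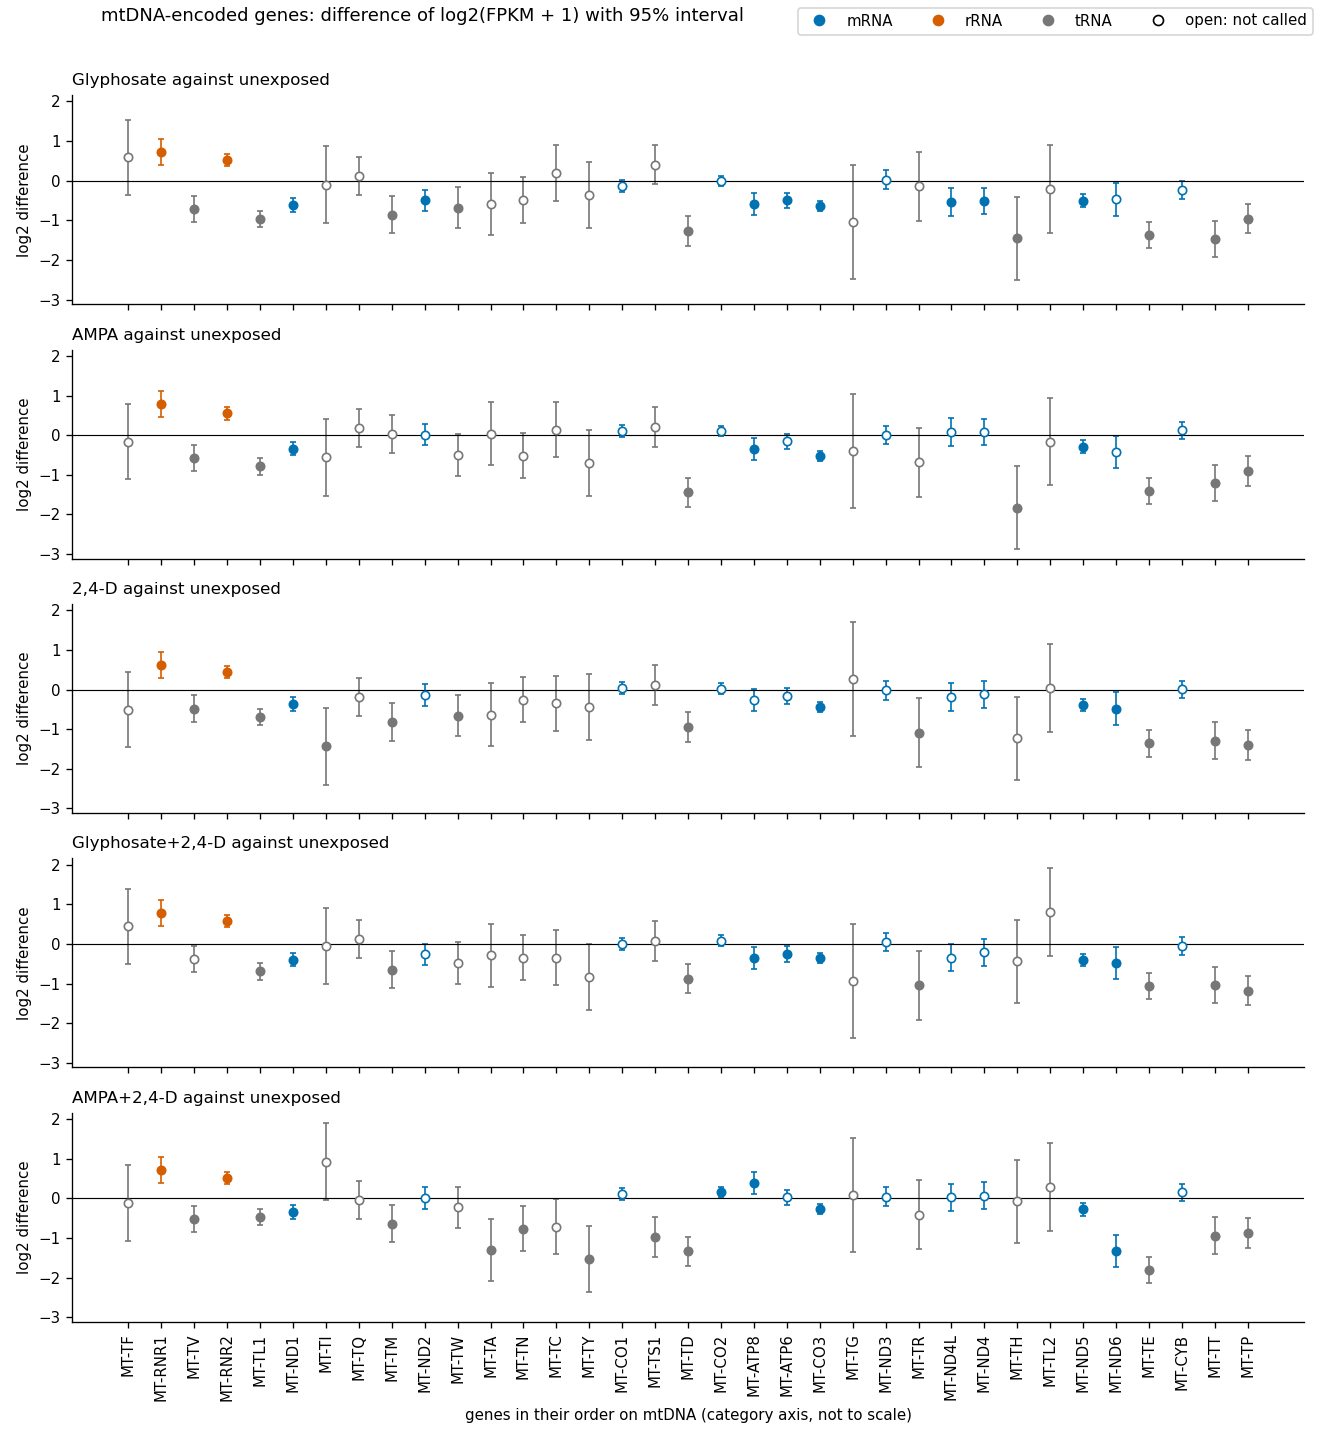
Points give the difference of mean log2(FPKM + 1) from unexposed cells (y axis) for the 35 members in their order on mtDNA (x axis, not to scale), 1 panel per exposure, with 95% intervals from limma; open points were not called. MT-RNR1 and MT-RNR2 lie above 0 in each panel, and MT-TL1, MT-ND1, MT-TD, MT-CO3, MT-ND5, MT-TE, MT-TT and MT-TP below it.

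MT-RNR1, the 12S rRNA of the small ribosomal subunit (chrM:648-1601, plus strand), was at 2466, 2506 and 2299 FPKM in unexposed replicates 1 to 3 and at 3869, 4004 and 3725 in replicates 4 to 6. It was at 4817, 4962 and 5371 after glyphosate, 4871, 5186 and 5866 after AMPA, and 4823, 4146 and 5055 after 2,4-D. In the mixtures it was at 4858, 5501 and 5325 with Glyphosate+2,4-D and 5223, 4560 and 5155 with AMPA+2,4-D. All 15 exposed libraries were above all 6 unexposed ones, but the nearer unexposed set stood much closer to them than the other did. The log2 difference was 0.61 to 0.79 (SE 0.156, 1.52- to 1.73-fold, adjusted p = 0.000354 to 0.00375). Its size depended on the unexposed set: against replicates 4 to 6 alone it was 0.27 to 0.45, and against replicates 1 to 3 alone 0.94 to 1.13, called in every exposure both times. Without AMPA+2,4-D replicates 1 and 3, the AMPA+2,4-D difference was 0.58 and was no longer called (adjusted p = 0.101), with 1 library left that is assumed to vary like the other groups.

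MT-RNR2, the 16S rRNA of the large subunit (chrM:1671-3229, plus strand), had the highest mean FPKM of all 28808 genes. Its levels in unexposed cells were 9435, 10501, 9481, 10670, 11205 and 10093 FPKM, with the 2 sets overlapping. They were 14415, 14127 and 15570 after glyphosate, 13962, 14521 and 16359 after AMPA, and 14430, 12550 and 14956 after 2,4-D. With the mixtures they were 14537, 15988 and 14860 (Glyphosate+2,4-D) and 14768, 13771 and 15280 (AMPA+2,4-D). Each exposed library was above each unexposed one, and the groups of exposed libraries overlapped each other. The log2 difference was 0.45 to 0.57 (SE 0.0727, 1.37- to 1.48-fold, adjusted p = 5.78e-06 to 6.77e-05). It kept its size with all genes in the fit but was then not called (adjusted p = 0.175 to 0.298).

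The ratio of rRNA to mRNA FPKM does not depend on how a library is scaled. It was 0.231 to 0.234 in unexposed replicates 1 to 3, 0.287 to 0.302 in replicates 4 to 6, and 0.364 to 0.522 in the exposed libraries. Its mean rose from 0.264 ± 0.0338 (SD, n = 6) to 0.487 ± 0.0307 after glyphosate, 0.410 ± 0.0424 after AMPA, 0.399 ± 0.0320 after 2,4-D, 0.446 ± 0.0529 after Glyphosate+2,4-D and 0.385 ± 0.0145 after AMPA+2,4-D (SD, n = 3; exact permutation test, adjusted p = 0.0238 each). The ratio of 16S to 12S rRNA separated the unexposed sets instead, at 3.83 to 4.19 in replicates 1 to 3 and 2.71 to 2.80 in replicates 4 to 6. The exposed libraries, at 2.79 to 3.03, were near the second set.

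**Figure D3:**
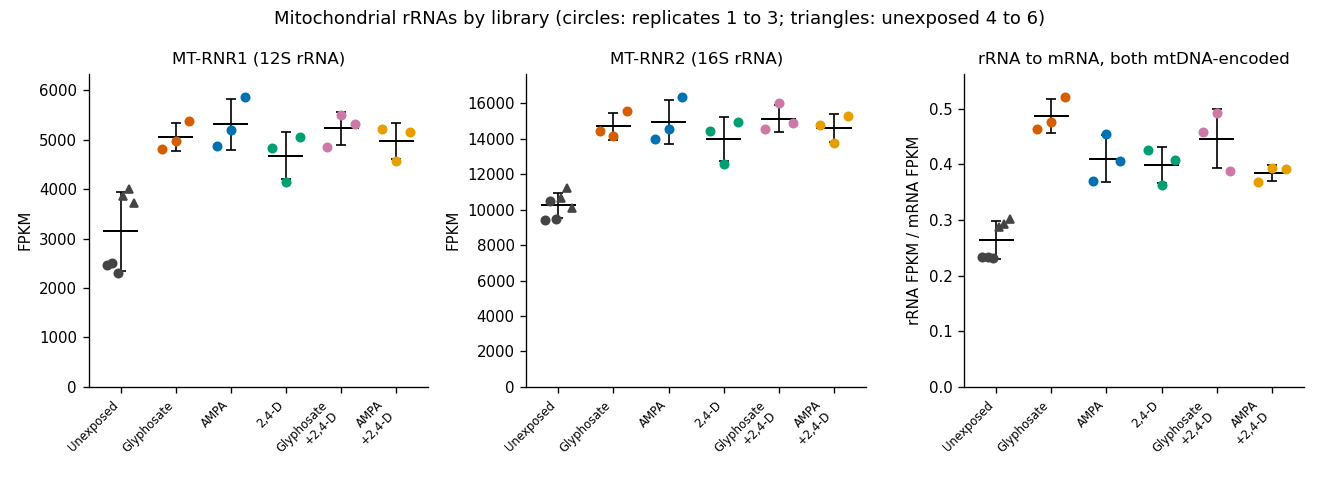
Each point is 1 library: FPKM of MT-RNR1 and MT-RNR2, and the ratio of summed rRNA to summed mRNA FPKM (y axes from 0), with group means and SD as black bars. For MT-RNR1 the unexposed circles (2299 to 2506) and triangles (3725 to 4004) form separate sets, both below the exposed libraries (4146 to 5866).

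Some nuclear RNAs of kinds that usually lack a poly(A) tail were also called higher. A list of such nuclear RNAs (histone mRNAs and small structural RNAs) held 0.287 to 0.449% of FPKM in unexposed libraries and 0.536 to 0.906% in 13 exposed ones, but 0.328 and 0.355% in AMPA+2,4-D replicates 1 and 3, where the mitochondrial rRNAs were as high as elsewhere. Of its 7 tested members 4 or 5 were called higher in each exposure and 0 lower, beside 25 to 28% and 22.6 to 25.1% of all genes. HIST1H1C, the linker histone H1.2, went from 7.07 ± 1.30 FPKM (SD, n = 6) to 24.2 ± 3.48 over the exposed libraries (SD, n = 15), a log2 difference of 1.44 to 1.87. HIST1H2BC and HIST1H2AC, core histone genes, differed by 0.65 to 1.10 and 0.37 to 0.63, called in all 5 exposures, and RN7SL2, an RNA of the signal recognition particle, by 0.44 to 1.32, called in 4. HIST1H4C and HIST1H4H were called higher in 2 exposures each, and HIST2H2AC in none (-0.43 to 0.21). The mRNAs of cytosolic ribosomal proteins, 79 genes, took 6.73 to 7.87% of FPKM in unexposed and 8.63 to 9.66% in exposed libraries. The part of RNA capture in the rRNA result was not tested.

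Among the mRNAs, 3 were called lower in all 5 exposures: MT-ND1 and MT-ND5, membrane subunits of complex I, and MT-CO3, a core subunit of complex IV (cytochrome c oxidase). MT-CO3 (chrM:9207-9990) was at 5383, 5860, 5270, 5573, 6117 and 5251 FPKM in unexposed replicates 1 to 6. It was at 3655, 3447 and 3558 after glyphosate, 3914, 3646 and 4138 after AMPA, 4270, 3923 and 4119 after 2,4-D, 4270, 4244 and 4492 after Glyphosate+2,4-D, and 5029, 4300 and 4601 after AMPA+2,4-D. No exposed library reached the lowest unexposed one. MT-CO3 fell by 0.65 after glyphosate, 0.52 after AMPA, 0.44 after 2,4-D, 0.36 after Glyphosate+2,4-D and 0.26 after AMPA+2,4-D on the log2 scale (SE 0.0602, adjusted p = 1.02e-07 to 0.00140). The last 2 were not called with all genes in the fit (adjusted p = 0.0532 and 0.157).

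MT-ND1 (chrM:3307-4262) ranged from 3435 to 4227 FPKM with a median of 3893 in unexposed cells. It was at 2605, 2480 and 2439 after glyphosate, 2969, 2698 and 3495 after AMPA, 2976, 2855 and 3113 after 2,4-D, 2695, 2833 and 3252 after Glyphosate+2,4-D, and 3148, 2836 and 3049 after AMPA+2,4-D. Of the 15 exposed libraries, AMPA replicate 3 was within the unexposed range. The log2 difference was -0.61 after glyphosate and -0.34 to -0.40 after the others (SE 0.0803, adjusted p = 5.25e-06 to 0.00178). MT-ND5 (chrM:12337-14148) went from 1824 to 2212 FPKM in unexposed cells to 1384 to 1882 after exposure, a log2 difference of -0.28 to -0.50 (SE 0.0753, adjusted p = 2.43e-05 to 0.00505).

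A further 3 complex I mRNAs were called lower after glyphosate and in no other exposure: MT-ND2, MT-ND4L and MT-ND4, which encode other membrane subunits of the complex. MT-ND4L and MT-ND4 overlap by 7 bases and are carried by a single mRNA, so their levels are not independent. MT-ND4 was at 6657, 7484, 6523, 6024, 5666 and 5192 FPKM in unexposed replicates 1 to 6 and at 4255, 4559 and 4280 after glyphosate, a log2 difference of -0.51 (SE 0.160, adjusted p = 0.0125). Without unexposed replicates 1 to 3 it was -0.36 and not called (adjusted p = 0.109), and MT-ND4L likewise (adjusted p = 0.0803). On the TPM scale MT-ND2 (-0.40, adjusted p = 0.00787) and MT-ND4L (-0.48, adjusted p = 0.0139) were called lower after Glyphosate+2,4-D too. So was MT-ND4L with the replicate block (adjusted p = 0.0398), whose log2 differences equal those without unexposed replicates 4 to 6. In the other exposures replicates of MT-ND4 lay far apart: 7145, 5048 and 7813 after AMPA, 4936, 5978 and 6363 after 2,4-D, 4387, 4941 and 7040 after Glyphosate+2,4-D, and 7396, 5210 and 7095 after AMPA+2,4-D. MT-ND4L had the same low and high libraries, with 4335, 2986 and 4863 after AMPA and 4632, 2917 and 4170 after AMPA+2,4-D, as did MT-ND2 with 2607, 1977 and 2793 and 2662, 2057 and 2589. MT-ND3, another complex I subunit, was not called in any exposure (log2 difference -0.02 to 0.05, SE 0.112), with 2219 to 3216 FPKM in unexposed and 2113 to 3006 in exposed libraries.

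MT-ATP6 and MT-ATP8 encode membrane subunits of ATP synthase and share 46 bases, shown in capitals at the end of MT-ATP8, because reads from that stretch may belong to either gene.
MT-ATP8, chrM:8366-8572, plus strand: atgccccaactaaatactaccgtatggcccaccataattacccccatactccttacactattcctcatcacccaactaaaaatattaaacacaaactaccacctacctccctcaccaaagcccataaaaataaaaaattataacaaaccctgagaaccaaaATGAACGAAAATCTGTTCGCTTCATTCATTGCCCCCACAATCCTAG
MT-ATP6 was called lower after glyphosate, with 2559, 2530 and 2470 FPKM against 3276 to 3685 in unexposed cells (log2 difference -0.49, SE 0.0921, adjusted p = 0.000213), and after Glyphosate+2,4-D (-0.26, adjusted p = 0.0291). The second call ended without Glyphosate+2,4-D replicate 1 (-0.16, adjusted p = 0.208), without its replicate 2 (-0.19, adjusted p = 0.155) and without unexposed replicates 1 to 3 (-0.25, adjusted p = 0.0887). MT-ATP8 went from 272 to 341 FPKM in unexposed cells to 204, 215 and 195 after glyphosate (log2 difference -0.58, SE 0.132, adjusted p = 0.00120). It was also called lower after AMPA (-0.35, adjusted p = 0.0321) and Glyphosate+2,4-D (-0.35, adjusted p = 0.0354). After AMPA+2,4-D it was called higher (0.39, adjusted p = 0.0197), with 435 and 485 FPKM in replicates 1 and 3 and 309 in replicate 2, which lay within the unexposed range. Without replicates 1 and 3 the MT-ATP8 difference after AMPA+2,4-D was 0.0086, and the call also ended without either of them and on the TPM scale (0.28, adjusted p = 0.0711). The MT-ATP8 call after Glyphosate+2,4-D ended without its replicate 1 (-0.24, adjusted p = 0.201). Calls were also gained on the TPM scale. There MT-ATP6 was called lower after AMPA (-0.32, adjusted p = 0.00248) and 2,4-D (-0.26, adjusted p = 0.0127), but not after AMPA+2,4-D (-0.10, adjusted p = 0.336). MT-ATP8 was called lower there after 2,4-D (-0.36, adjusted p = 0.0233).

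The remaining mRNAs of complexes III and IV had smaller differences from unexposed cells. MT-CO1, the catalytic subunit of cytochrome c oxidase and the member with the second highest mean, was at 9944 to 12677 FPKM in unexposed and 10226 to 13095 in exposed libraries, and was not called in any exposure (log2 difference -0.13 to 0.11, SE 0.0725). It was called lower after glyphosate on the TPM scale (-0.23, adjusted p = 0.00731) and without unexposed replicates 4 to 6 (-0.21, adjusted p = 0.0160), and higher after AMPA+2,4-D without replicates 1 to 3 (0.19, adjusted p = 0.0370). MT-CO2, which receives electrons from cytochrome c, was called higher after AMPA+2,4-D alone (0.16, SE 0.0618, adjusted p = 0.0436), a call that ended in 20 of 33 alternative settings, among them the TPM scale (0.04, adjusted p = 0.586). MT-CYB, cytochrome b of complex III, was not called (-0.23 to 0.15, SE 0.103). Its calls depended on the unexposed set: without replicates 4 to 6 it was called higher after AMPA (0.27, adjusted p = 0.0258) and AMPA+2,4-D (0.30, adjusted p = 0.0143), and without replicates 1 to 3 lower after glyphosate (-0.38, adjusted p = 0.00489), as on the TPM scale (-0.33, adjusted p = 0.00357). With the replicate block MT-CYB was called higher after AMPA (adjusted p = 0.0282) and AMPA+2,4-D (adjusted p = 0.0163), and MT-CO1 lower after glyphosate (adjusted p = 0.0163). The block is not a separate check here. Only unexposed cells have replicates 4 to 6, so it sets those libraries aside and gives the same log2 differences as leaving them out. Unexposed replicates 1 to 3 of MT-CYB, at 1705 to 1871 FPKM, lay below replicates 4 to 6, at 1977 to 2298, and the exposed libraries spanned 1576 to 2323. In all, 9 of the 35 members had unexposed sets that did not overlap: MT-RNR1, MT-CO1, MT-CO2, MT-ND3, MT-ND4L, MT-ND4, MT-CYB, MT-TY and MT-TT. The share of all genes with such sets was not counted, so 9 of 35 is not read as a trait of these members.

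Of the summed mRNA FPKM, complex I genes held 42.3% ± 0.544 in unexposed cells (SD, n = 6) and complex IV genes 46.2% ± 0.518. After glyphosate these parts were 38.7% ± 0.379 and 50.5% ± 0.564 (SD, n = 3), with no overlap for either. In the other exposures complex I genes held 37.4 to 44.2% per library and complex IV genes 44.7 to 51.9%.

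**Figure D4:**
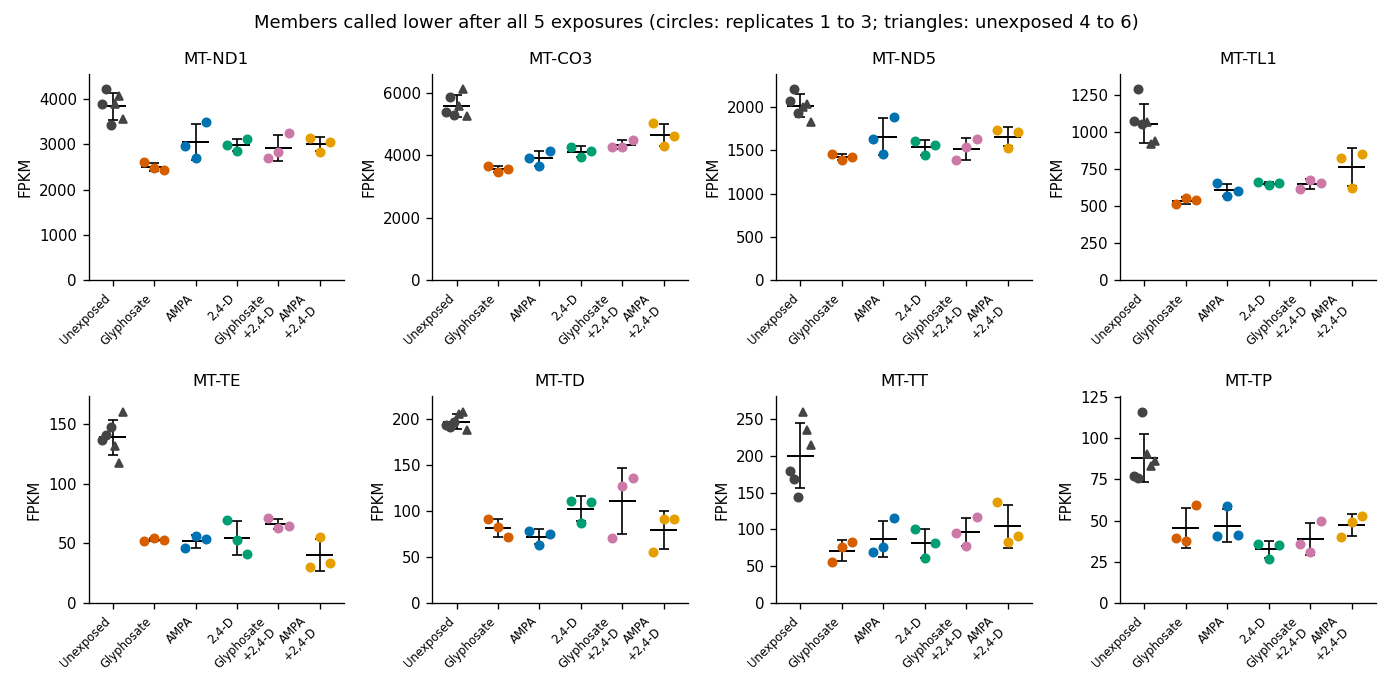
Each point is 1 library and shows FPKM (y axis from 0) of the 8 members called lower in all 5 exposures, with group means and SD as black bars. For MT-CO3, MT-TL1, MT-TE, MT-TD, MT-TT and MT-TP all 15 exposed libraries lie below all 6 unexposed ones; for MT-ND1 (3495) and MT-ND5 (1882) AMPA replicate 3 reaches the unexposed range.

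The tRNA genes, 65 to 75 bases long, carried few reads. Mature tRNAs are poorly captured by standard RNA-seq, and the data do not tell mature from precursor RNA. Of the 20, 9 were called lower after glyphosate, 7 after AMPA, 10 after 2,4-D, 7 after Glyphosate+2,4-D and 11 after AMPA+2,4-D, beside 22.6 to 25.1% of all genes. These counts include calls on few reads. MT-TH, called lower in 2 exposures, had 0 to 7 reads per library. MT-TI, called lower after 2,4-D, had 1, 7 and 1 reads there and 7 to 14 in unexposed libraries. Called lower in all 5 were MT-TL1, MT-TD, MT-TE, MT-TT and MT-TP, the tRNAs for leucine (UUR), aspartate, glutamate, threonine and proline. Of these, MT-TE and MT-TP are read from the minus strand and the others from the plus strand. How many of all genes were called lower in all 5 exposures was not counted.

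MT-TL1, which directly follows 16S rRNA in the junction printed above, had the most reads of any tRNA (601 to 1811 per library). It was at 1075, 1293, 1055, 1068, 921 and 940 FPKM in unexposed replicates 1 to 6. After exposure it was at 513, 557 and 541 (glyphosate), 654, 570 and 602 (AMPA), 661, 641 and 657 (2,4-D), 614, 679 and 655 (Glyphosate+2,4-D), and 826, 620 and 853 (AMPA+2,4-D). MT-TL1 thus stood below its unexposed range in each library in which the adjoining 16S rRNA stood above its own. It fell by 0.97, 0.79, 0.69, 0.70 and 0.47 on the log2 scale in that order (SE 0.0979, adjusted p = 2.80e-07 to 0.000665).

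MT-TE, which directly precedes MT-ND6 on the minus strand, was at 136, 140, 147, 132, 117 and 160 FPKM in unexposed cells (164 to 222 reads). It was at 52, 54 and 53 after glyphosate, 46, 56 and 53 after AMPA, 69, 53 and 41 after 2,4-D, 71, 62 and 65 after Glyphosate+2,4-D, and 30, 55 and 34 after AMPA+2,4-D. This was the member with the lowest fold in the mixture of AMPA and 2,4-D, at 0.284 times unexposed, and 0.378 to 0.481 times in the others (log2 difference -1.06 to -1.82, SE 0.157, adjusted p = 6.43e-08 to 2.73e-05).

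MT-TD, which directly precedes MT-CO2, went from 188 to 208 FPKM in unexposed cells to 55 to 136 after exposure (log2 difference -0.88 to -1.44, SE 0.177, adjusted p = 2.51e-06 to 0.000528), whereas the adjoining MT-CO2 was at 6124 to 7514 FPKM after exposure and 5846 to 7231 before it. MT-TT, which directly follows MT-CYB, had 144 to 180 FPKM in the first set of unexposed replicates (1 to 3), 216 to 260 in the second (4 to 6), and 55 to 138 in exposed libraries (-0.94 to -1.47, SE 0.220, adjusted p = 2.24e-05 to 0.00169). MT-TP was at 75.6 to 116 FPKM in unexposed and 26.8 to 59.5 in exposed libraries (-0.87 to -1.40, SE 0.177, adjusted p = 5.03e-06 to 0.000539). In these 3 genes no exposed library reached the unexposed range.

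MT-TV, the valine tRNA between 12S and 16S rRNA in the first junction above, was called lower in 4 exposures and not after Glyphosate+2,4-D (log2 difference -0.37, SE 0.156, adjusted p = 0.0588). It was at 98.7 to 133 FPKM in unexposed and 58.1 to 113 in exposed libraries. The call after AMPA+2,4-D ended without its replicate 2 (-0.30, adjusted p = 0.110). Of the other tRNAs MT-TF, MT-TQ, MT-TC, MT-TG and MT-TL2 were not called in any exposure, and MT-TG, MT-TH and MT-TL2 had 0 reads in at least 1 library and at most 15.

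Of the 35 members 9 are read from the minus strand of mtDNA. MT-ND6, the only mRNA on that strand and a complex I subunit, was at 543, 553, 578, 559, 538 and 513 FPKM in unexposed cells. It was at 406, 394 and 385 after glyphosate, 433, 384 and 402 after AMPA, 419, 389 and 370 after 2,4-D, and 391, 345 and 443 after Glyphosate+2,4-D. After AMPA+2,4-D it was at 163, 405 and 156: replicate 2 was level with the other exposures, and replicates 1 and 3 were far below every other library. All 15 exposed libraries were below the 6 unexposed ones. The log2 difference was -0.47 after glyphosate (SE 0.194, adjusted p = 0.0503) and -0.43 after AMPA (adjusted p = 0.0720), neither called. It was -0.48 after 2,4-D and after Glyphosate+2,4-D (adjusted p = 0.04996 and 0.0480) and -1.32 after AMPA+2,4-D (adjusted p = 2.29e-05), all 3 called. MT-ND6 was called lower in all 5 exposures in 7 of 33 alternative settings. Among these was the TPM scale, with -0.57 after glyphosate (adjusted p = 0.0217) and -0.60 after AMPA (adjusted p = 0.0166). The call after 2,4-D held in 8 of 33 alternative settings, that after Glyphosate+2,4-D in 10 and that after AMPA+2,4-D in 33. Without AMPA+2,4-D replicates 1 and 3, which also narrows the shared spread, it was -0.43 after AMPA+2,4-D and called in all 5.

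The same AMPA+2,4-D libraries were low in MT-TE, given above, and in other tRNAs of that strand, but not in MT-TP, MT-TQ, MT-TA and MT-TN. MT-TS1, a serine tRNA, was at 41.1 and 43.4 FPKM in replicates 1 and 3 and 120 in replicate 2, against 97.8 to 144 in unexposed and 99.2 to 180 in other exposed libraries. The MT-TS1 call after AMPA+2,4-D (-0.98, SE 0.239, adjusted p = 0.00237) ended without those replicates, with a log2 difference of 0.0080. MT-TY, the tyrosine tRNA, was at 18.9 and 11.8 FPKM in them, 75.7 in replicate 2 and 38.4 to 121 elsewhere. Minus-strand genes held 0.116 and 0.115% of mitochondrial reads in replicates 1 and 3, 0.325% in replicate 2, 0.267 to 0.348% in the other exposures and 0.419 to 0.491% in unexposed cells. Reads of genes annotated as antisense moved with them over the whole genome, at 0.287 and 0.286% of reads in replicates 1 and 3 against 0.386% in replicate 2, 0.340 to 0.405% in the other exposures and 0.426 to 0.458% in unexposed cells. Whether the authors counted reads by strand is not given in the sources used here, so reads of a gene and of its antisense partner cannot be told apart, and the part of library preparation in these values was not tested.

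**Figure D5:**
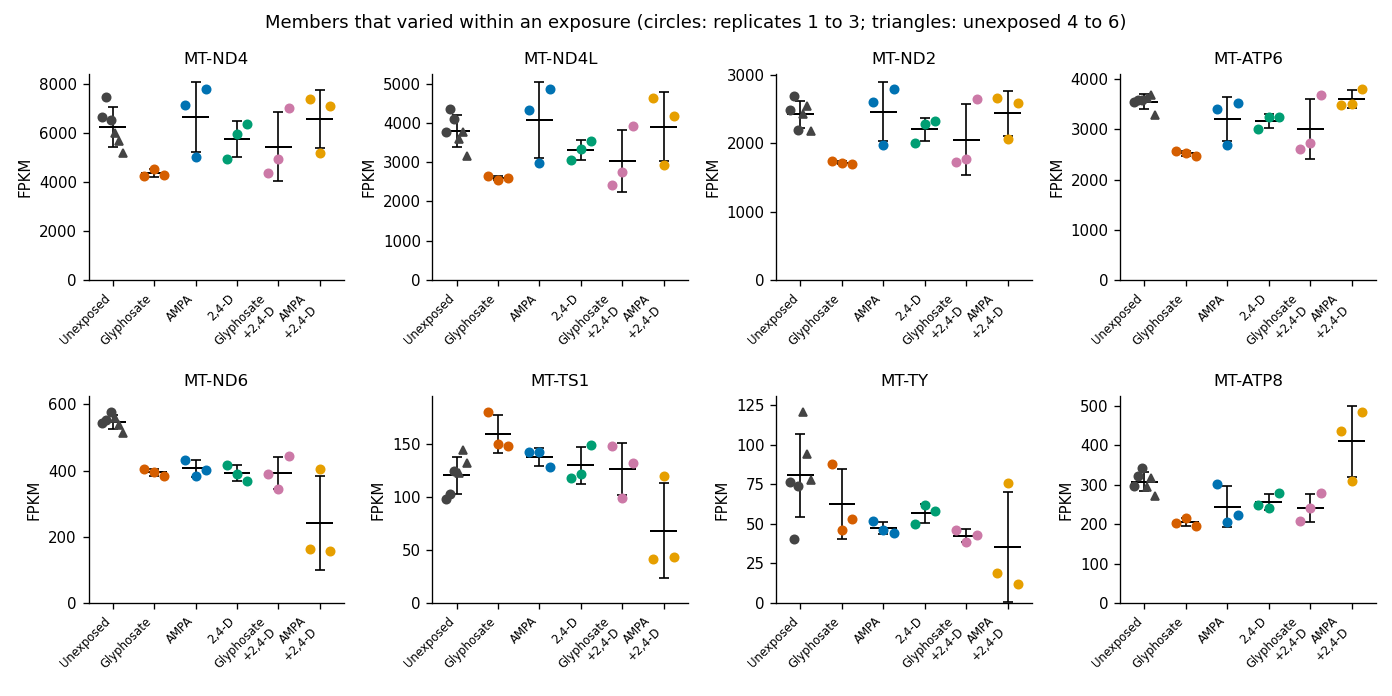
Each point is 1 library and shows FPKM (y axis from 0) of members whose replicates lay apart within an exposure, with group means and SD as black bars. AMPA+2,4-D replicates 1 and 3 are the 2 low points for MT-ND6 (163 and 156), MT-TS1 and MT-TY and the 2 high points for MT-ATP8 (435 and 485); AMPA replicate 2 (5048) is the low point of its group for MT-ND4.

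The exposures were compared with each other in 10 pairs, at concentrations that differ between the compounds. Members were called in 3 pairs, each with AMPA+2,4-D. Against glyphosate 6 were called (3.68% of all genes), with MT-TL1 (0.50), MT-ATP8 (0.97), MT-ATP6 (0.51) and MT-CO3 (0.38) higher and MT-TS1 (-1.39) and MT-ND6 (-0.86) lower on the log2 scale (adjusted p = 0.00824 to 0.0441). Against AMPA 3 were called (2.71% of all genes), MT-ATP8 higher by 0.74, MT-TS1 lower by a log2 difference of -1.19 and MT-ND6 by -0.90. Against Glyphosate+2,4-D 1 was called (0.261%), MT-ATP8, higher by 0.74 (adjusted p = 0.0498). All 10 calls ended when AMPA+2,4-D replicates 1 and 3 were left out, and also when each pair was fitted on its own libraries.

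In the other 7 pairs limma called 0 members, with 9 at an unadjusted p under 0.05 for AMPA against glyphosate, 10 for 2,4-D against glyphosate, 4 for Glyphosate+2,4-D against glyphosate, 3 for 2,4-D against AMPA, 5 for Glyphosate+2,4-D against AMPA, 1 for Glyphosate+2,4-D against 2,4-D and 8 for AMPA+2,4-D against 2,4-D. The background was 0% of all genes in 6 of these pairs and 0.0373% for Glyphosate+2,4-D against AMPA. The 95% interval of a difference between 2 exposures reached a median of 0.25 to either side for the mRNAs and 0.63 for the tRNAs, so smaller differences were mostly not detectable with 3 libraries a group. For MT-ND4, MT-ND4L and MT-ND2, lower after glyphosate than in unexposed cells, no exposure was called different from glyphosate.

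The mixtures were also set against the sum of their components on the log2 scale, as mixture plus unexposed minus both single exposures. This term was called for 13 members with Glyphosate+2,4-D (12 above 0 and 1 below, background 33.6% of all genes) and for 14 with AMPA+2,4-D (11 and 3, background 36.7%). For MT-CO3 the mixture with glyphosate was 0.73 above the sum (SE 0.0919, adjusted p = 1.35e-05), with log2 differences from unexposed cells of -0.65 and -0.44 for the single compounds and -0.36 for the mixture. For MT-RNR2 that mixture was below the sum, by -0.41 (SE 0.111, adjusted p = 0.00865), with 0.52 and 0.45 singly and 0.57 together. The unexposed libraries enter every part of this term. When 3 groups differ from the unexposed group alike, the term takes that difference with its sign turned.

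Nuclear genes of the same complexes were followed in lists chosen by function, to be read beside the 25 to 28% of all genes called higher and 22.6 to 25.1% called lower. Of 36 tested nuclear subunits of complex I, 17 to 24 were called higher and 1 or 2 lower, depending on the exposure. NDUFA2 rose by 0.76 to 0.99 on the log2 scale (18.6 ± 3.16 FPKM in unexposed, 35.3 ± 3.03 over exposed libraries, SD), NDUFS4 by 0.41 to 0.69, NDUFA6 by 0.36 to 0.54 and NDUFS5 by 0.42 to 0.54, all accessory subunits. Complex III had 6 to 8 of 9 called higher and 0 lower, with UQCRH, UQCRC1, UQCRC2 and UQCRQ called in all 5 exposures (UQCRC1 0.21 to 0.45). Complex IV had 9 to 11 of 11 higher and 0 lower, among them NDUFA4 (0.49 to 0.67), COX4I1 (0.29 to 0.46), COX7A2 (0.58 to 0.70) and COX6A1 (0.42 to 0.66). For ATP synthase 9 to 13 of 16 were higher and 0 or 1 lower, with ATP5F1E at 0.52 to 0.72, ATP5MG at 0.47 to 0.54, ATP5MC3 at 0.35 to 0.48 and ATP5F1B, the catalytic beta subunit, at 0.21 to 0.32. Median log2 differences were 0.17 to 0.28 for complex I, 0.33 to 0.43 for complex III, 0.40 to 0.55 for complex IV and 0.19 to 0.33 for ATP synthase, beside -0.16 to 0.024 for all mtDNA mRNAs except after glyphosate and Glyphosate+2,4-D, where these were at -0.49 and -0.26. Complex II, which has no subunit in mtDNA, had 2 or 3 of 4 higher: SDHA rose by 0.18 to 0.33 and SDHD by 0.23 to 0.37 in all 5, SDHB was called higher in 4 (0.05 to 0.21), and SDHC was called lower in 3 (-0.07 to -0.12 over all 5). On the TPM scale SDHB was not called in any exposure, SDHA not in the mixtures and UQCRQ not after AMPA. Scaled to the sum of nuclear genes, SDHB turned to -0.023 after glyphosate and -0.0026 after Glyphosate+2,4-D.

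Of 17 tested genes that copy and transcribe mtDNA, 1 to 3 were called higher and 2 to 6 lower, the latter share spanning that of all genes (22.6 to 25.1%). POLRMT, the mitochondrial RNA polymerase, was called higher in all 5 exposures (15.7 ± 0.971 FPKM in unexposed, 18.3 ± 0.834 over exposed libraries, log2 difference 0.15 to 0.27). On the TPM scale its difference was called after glyphosate alone. TFAM, which packages mtDNA and starts its transcription, was called higher in 2 (0.07 to 0.23), and its partner TFB2M in none (-0.08 to 0.06). LONP1, a matrix protease, and TWNK, the mtDNA helicase, were called lower in all 5 (-0.19 to -0.29 and -0.18 to -0.33). MTERF2, a member of the termination factor family, was called lower in 3, and POLG, the mtDNA polymerase, in none.

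Among 28 tested genes that process, stabilize or degrade mitochondrial RNA, 4 to 8 were called higher and 7 to 10 lower, near the shares of all genes (25 to 28% and 22.6 to 25.1%). FASTKD1 and TBRG4 (FASTKD4), RNA-binding proteins that set levels of single mitochondrial mRNAs, rose by 0.31 to 0.43 and 0.30 to 0.46 in all 5 exposures. MRM1, which methylates 16S rRNA, fell from 7.32 ± 0.688 FPKM to 4.79 ± 0.459 over the exposed libraries (log2 difference -0.40 to -0.59), and PUS1, a pseudouridine synthase, differed by -0.20 to -0.31, both called in all 5. SLIRP, which with LRPPRC keeps mitochondrial mRNAs stable, was called higher in all 5 (0.23 to 0.35; on the TPM scale not after 2,4-D or AMPA+2,4-D), while LRPPRC, PNPT1 and SUPV3L1, the last 2 being parts of the RNA degradation machinery, were called in none. Of 13 tested translation factors 2 to 4 were called higher and 4 to 6 lower, with TACO1, an activator of MT-CO1 translation, at -0.31 to -0.50, TSFM at -0.21 to -0.28, C12orf65 at -0.29 to -0.37 and the release factor gene MTRF1L at 0.37 to 0.48 in all 5.

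Nuclear copies of mtDNA genes can share reads with the members. Of 9 such copies, 3 were tested, and their summed FPKM was 316 to 367 in unexposed and 225 to 472 in exposed libraries. MTATP6P1 was called lower in 4 exposures, MTCO1P12 and MTND2P28 in 2 each, and how reads that fit both a copy and mtDNA were assigned is not given in the sources used here.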

How the data were processed

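The deposited FPKM values, from HISAT2 2.0.5 alignments to GRCh38 and featureCounts 1.5.0-p3 counts per the submitters' processing notes, were used as the authors deposited them. Libraries were made from total RNA with a SMARTer kit, per the labels' protocols. FPKM times gene length, divided by 1 scale factor per library found from the values, gave whole reads for 100% of values (largest deviation 0.000139 of a read, tolerance 0.1), and depths are sums of these reads. Genes were tested with limma 3.58.1 (R 4.3.3) on log2(FPKM + 1), which understates changes of low genes, over all 21 libraries with a mean-variance trend, for 13405 genes present in all 6 tables whose FPKM reached 1 in 3 or more libraries. Adjusted p-values (Benjamini-Hochberg within each comparison) and calls (adjusted p under 0.05) for single genes are from this fit, and the procedure was tested on simulated data. Shares and ratios were compared with exact two-sided permutation tests (scipy 1.17.1), adjusted over the 5 exposures. Genes were named by a rule: all mitochondrial mRNAs and rRNAs; at most 6 tRNAs called in at least 1 exposure, by smallest p, and the 3 with most reads; of each nuclear list the 4 members with the smallest maximum adjusted p over the exposures; and always POLRMT, TFAM, TFB2M, LRPPRC, SLIRP, PNPT1, SUPV3L1 and POLG. MT-TY, the tRNAs not called in any exposure or with few reads, AFP, ALB and the markers of other cells were named after their values were seen. The members and the gene lists were chosen with earlier results of these data known. Same-numbered libraries did not deviate together (45 pairs, correlations -0.137 to 0.0884), and replicate numbers were not used to pair samples in the main fit. These correlations cannot tell whether same-numbered samples were grown together. Alternatives covered the pseudocount, filter, scaling, model, voom on recovered reads, and left-out libraries. Leaving out AMPA+2,4-D replicates 1 and 3, and all alternatives for the rRNA to mRNA ratio, were chosen after seeing the data.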

Additional observations from a re-analysis of the deposited data

Results flagged for a closer look

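In 24 groups of values, each from the 6 unexposed libraries, 2 held a library far from its nearest neighbour. The gap was large for the range of its group, where chance gives about 1 in 20. Groups of exposed libraries were not examined in this way. MT-ATP6 was at 3276 FPKM in unexposed replicate 6, below the other 5 at 3539 to 3685, and MT-TP was at 116 FPKM in unexposed replicate 3, above the other 5 at 75.6 to 90.1.

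The effect of a mixture differed from the sum of its components, by limma's test of the interaction term (mixture plus unexposed minus both single exposures, log2 scale), for 13 of 35 members with Glyphosate+2,4-D and 14 of 35 with AMPA+2,4-D, of which 11 and 12 were named by rule and are given here. The share of all genes called was close to this, at 33.6% and 36.7%. For Glyphosate+2,4-D the term was below 0 for MT-RNR2 (-0.41). It was above 0 for MT-ND1 (0.58), MT-ATP6 (0.40), MT-CO3 (0.73) and MT-ND5 (0.48) among the mRNAs, and for MT-TV (0.81), MT-TL1 (0.96), MT-TD (1.33), MT-TE (1.67), MT-TT (1.72) and MT-TP (1.17) among the tRNAs. For AMPA+2,4-D it was below 0 for MT-RNR1 (-0.70), MT-RNR2 (-0.48) and MT-TS1 (-1.30). It was above 0 for MT-ND1 (0.35), MT-ATP8 (1.00), MT-CO3 (0.69), MT-ND5 (0.40), MT-TL1 (1.01), MT-TD (1.05), MT-TE (0.95), MT-TT (1.56) and MT-TP (1.43). The unexposed libraries enter every part of these terms, and a difference from unexposed cells that all exposures share gives a term of opposite sign by arithmetic.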

How the results depend on the processing

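Both rRNAs and the 8 members called lower in all 5 exposures kept those calls in 33 alternative settings, except that MT-RNR1, MT-RNR2 and MT-CO3 lost calls as given above. Of 3630 comparisons of a member with its main result, 3458 kept direction and side of the threshold, 110 lost a call, 61 gained one and 1 reversed: MT-TS1 after AMPA+2,4-D, at 0.0080 without its replicates 1 and 3. The number of members called moved from 15 to 9 after Glyphosate+2,4-D with no filter, and from 19 to 12 after AMPA+2,4-D without its replicates 1 and 3. The 10 calls between exposures became 4 with no filter, 0 with only the groups compared, and 0 without AMPA+2,4-D replicates 1 and 3. Leaving out 1 library at a time gave 0 to 31 of these calls (0 without AMPA+2,4-D replicate 1, 31 without its replicate 2), 17 to 21 calls for glyphosate, 12 to 15 for AMPA, 11 to 17 for 2,4-D, 10 to 17 for Glyphosate+2,4-D, 15 to 20 for AMPA+2,4-D and 24 to 31 for the interactions. With the replicate block, where the numbers do not pair samples, 19, 15, 13, 14 and 15 members were called in the same order, 12 between exposures and 29 interactions.

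The mean mitochondrial share of FPKM was lower in each exposure, but hardly so after AMPA+2,4-D (-0.042 percentage points). With the rRNAs alone counted it rose instead, by 1.77, 1.64, 1.42, 1.83 and 1.66 percentage points. As a share of reads its mean was 7.51% in unexposed cells and 6.82, 7.61, 7.36, 7.40 and 7.82% in the exposures. It was thus higher after AMPA and AMPA+2,4-D, and none passed (exact permutation test, adjusted p = 0.238 for glyphosate and 0.714 for the others). The rise of the rRNA to mRNA ratio was 0.193, 0.116, 0.105, 0.152 and 0.0907 without unexposed replicates 1 to 3, and 0.254, 0.177, 0.166, 0.213 and 0.152 without replicates 4 to 6, where 3 libraries against 3 cannot go below an exact permutation p of 0.1. Without 1 library it was 0.206 to 0.235, 0.125 to 0.167, 0.122 to 0.153, 0.160 to 0.212 and 0.115 to 0.130, where 2 libraries against 6 cannot go below an adjusted exact p of 0.0714, so the loss of calls there follows from the number of samples. Among nuclear genes, LRPPRC after AMPA turned to -0.15 on the TPM scale, -0.17 scaled to nuclear FPKM and -0.090 without unexposed replicates 1 to 3, and after glyphosate to 0.087 with the replicate block and without unexposed replicates 4 to 6. TFB2M after AMPA turned to -0.17 scaled to nuclear FPKM, where SDHB turned to -0.023 after glyphosate and -0.0026 after Glyphosate+2,4-D. PNPT1 turned to -0.14 after AMPA+2,4-D with the replicate block and without unexposed replicates 4 to 6, and to 0.14 after 2,4-D without unexposed replicates 1 to 3. The cause was not tested. tRNAs with few reads limit what can be seen: MT-TG, MT-TH and MT-TL2 had 0 to 15 reads per library.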
